A study of Drosophila melanogaster with 2 samples.

Results

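The basic helix-loop-helix (bHLH) transcription factor genes of Drosophila melanogaster were examined for binding of a tagged Abd-B protein. The set comprised 42 named genes of the proneural, mesodermal, E protein and Id, Hairy and Hey, leucine zipper and PAS types, out of 13945 protein-coding genes on the main chromosome arms. It was chosen by name, with earlier results of these data known, and every symbol matched 1 annotated gene. Chromatin immunoprecipitation and sequencing (ChIP-seq) had been done with an antibody against GFP on whole embryos aged 4 to 20 h, from a stable transgenic line that expresses Abd-B with GFP at its C-terminus. Abd-B is the Hox transcription factor of the most posterior segments. The 2 biological replicates form the only group, and the labels name no driver or promoter for the tagged protein. The embryos were not dissected, so summits of all tissues and stages were measured together, and the lists do not show in which cells the protein was bound.

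The bHLH proteins bind DNA as dimers: the helix-loop-helix holds the pair together and the basic stretch before it reads a short site with the core CANNTG, the E-box. Tissue-restricted members such as the proneural proteins act as heterodimers with the E protein Daughterless, the product of da, and set cell fate in the nervous system, muscle and glands. Members with a leucine zipper or a PAS domain choose other partners, and many act in most cells on growth, lipid synthesis, oxygen, hormone or daily rhythm. Hox proteins are known to act on tissue identity within a segment, and several proneural and mesodermal genes are known to be expressed in segment-specific patterns.

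The deposited lists give peaks with a summit, the single base of highest signal. The main list was the authors' list of 5033 peaks, cut by the irreproducible discovery rate (IDR), a measure of reproducibility between the replicates. Those peaks were the 5033 strongest of the pooled list, and rank 1 is the highest signal value. Of them, 4634 (92.1%) had a summit within 100 bp in both replicate lists. A place in the IDR list therefore does not mean that a peak was found in each replicate. Each replicate list and the pooled list held 30000 peaks, of which 4333 in replicate 1, 8557 in replicate 2 and 6677 in the pooled list had a q-value of 0.05 or less, so ranks far beyond 5033 do not stand for enrichment. A promoter summit lay within 1 kb of any annotated transcription start site (TSS) of a gene. Read depth is unknown from peak lists, and all intervals below are 95% Wilson intervals that cover the counting of genes only.

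The bases at the sites that carry the results are given first. Each run reaches 50 bp to either side of 1 IDR summit, on the forward strand of dm6, taken from the RefSeq sequence of that assembly and credited to RefSeq. The first 7 are promoter summits of members of both expression classes, and the last 3 are intron summits, shown because they include the strongest summit of the set away from a promoter and 2 with copies of CGATA. Capitals mark each match on either strand to a searched motif. The motifs were the E-box core CANNTG with its special case CACGTG, a pair known for posterior Hox proteins, TTTATGG as well as TTTATTG, the general homeodomain core TAATTA and 4 found at many promoters, namely TATCGATA together with the CGATA inside it, GGTCACAC known from housekeeping promoters and the GAGAG repeat.
gce internal promoter, chrX:15298410-15298510: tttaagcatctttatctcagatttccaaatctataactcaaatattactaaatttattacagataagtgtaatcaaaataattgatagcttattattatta
bigmax promoter, chr3R:27288629-27288729: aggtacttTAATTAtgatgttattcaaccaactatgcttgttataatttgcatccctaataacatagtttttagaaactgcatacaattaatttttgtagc
tai promoter, chr2L:9166553-9166653: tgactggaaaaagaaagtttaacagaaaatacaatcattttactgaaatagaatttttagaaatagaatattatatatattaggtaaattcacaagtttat
SREBP promoter, chr3L:19793782-19793882: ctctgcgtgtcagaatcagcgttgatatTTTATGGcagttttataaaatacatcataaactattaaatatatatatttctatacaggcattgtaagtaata
sima promoter, chr3R:30058140-30058240: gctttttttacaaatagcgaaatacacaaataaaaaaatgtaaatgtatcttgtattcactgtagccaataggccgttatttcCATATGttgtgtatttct
Oli promoter, chr2L:17588719-17588819: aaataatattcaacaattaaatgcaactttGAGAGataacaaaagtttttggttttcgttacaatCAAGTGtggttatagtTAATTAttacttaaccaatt
dysf promoter, chr3R:26099055-26099155: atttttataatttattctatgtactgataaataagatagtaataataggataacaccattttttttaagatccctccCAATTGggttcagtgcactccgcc
crp intron, chr2L:16279856-16279956: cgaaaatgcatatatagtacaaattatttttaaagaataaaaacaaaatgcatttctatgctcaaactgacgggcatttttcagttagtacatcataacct
Mnt intron, chrX:3677959-3678059: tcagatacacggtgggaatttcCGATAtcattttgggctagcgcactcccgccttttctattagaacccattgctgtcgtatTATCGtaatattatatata
gce intron, chrX:15312383-15312483: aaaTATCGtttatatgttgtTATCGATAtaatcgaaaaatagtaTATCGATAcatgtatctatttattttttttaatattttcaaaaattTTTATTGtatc
The gce promoter run, at the strongest site of the set, holds none of the 9 motifs within 50 bp of its summit. The SREBP run, at the weaker of its 2 promoter summits, holds TTTATGG, a form known for posterior Hox proteins. The stronger SREBP promoter summit, not printed, had no TTTATGG within 100 bp. The Oli run, at the stronger of its promoter summits, holds an E-box, TAATTA and GAGAG. The last gce run holds 2 copies of TATCGATA beside TTTATTG.

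Abd-B-GFP was found at the promoters of 10 of the 42 bHLH genes, at Oli, Max, Mnt, bigmax, SREBP, tgo, gce, tai, sima and dysf. That is 23.8% of the set (13.5 to 38.5%), beside 25.0% of all protein-coding genes, so as a set these genes had promoter summits about as often as genes in general. Within the gene, from its first to its last base, 12 of 42 (28.6%, 17.2 to 43.6%) had an IDR summit, beside 11.4% of all genes. With 10 kb added on both sides, 28 of 42 (66.7%) had one, beside 64.8% of all genes. These are counts beside a background, with no test, since the set was chosen with earlier results of these data known.

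The expression classes differed in these counts. Among the 24 genes known to be expressed in particular tissues, 2 had a promoter summit (8.33%, 2.32 to 25.8%), namely Oli and dysf. Among the 18 genes known to be expressed in most cells, 8 had one (44.4%, 24.6 to 66.3%). The difference of restricted minus broad was -36.1 percentage points. The background of 25.0% lies between the 2 shares and inside both intervals, so neither class is set apart from all genes by its interval. Within the gene, 3 of the 24 restricted members (12.5%) and 9 of the 18 broad members (29.0 to 71.0%) had a summit. In the gene with its flanks the counts were 13 of 24 (54.2%) and 15 of 18 (83.3%). The classes were set from general knowledge of the genes, with earlier results of these data known. Leaving out the 7 members whose class is uncertain (emc, Hey, cwo, crp, Mitf, Met and Clk) gave 2 of 22 (9.09%) against 8 of 13 (61.5%). None of the 7 had an IDR promoter summit, so leaving them out could only raise both shares. Their removal is therefore no check of the class difference.

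**Figure D1:**
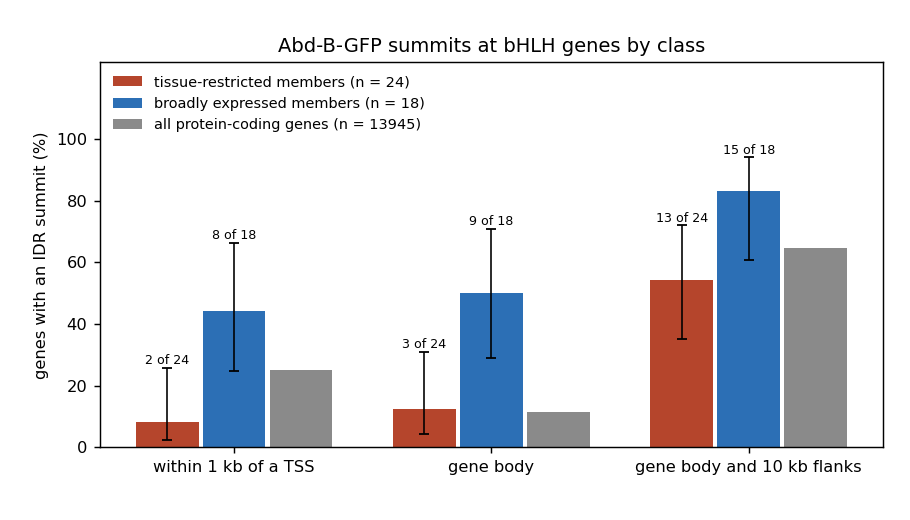
Share of genes, in percent, that hold IDR summits at a promoter (1 kb from a TSS at most), in the gene body, and in the gene body with 10 kb flanks, for the 24 tissue-restricted members, the 18 broadly expressed members and all 13945 protein-coding genes. Bars are shares, error bars are 95% Wilson intervals over genes and the counts stand above them; at promoters the restricted members stand at 8.33%, the broad members at 44.4% and all genes at 25.0%.

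Among the 10 proneural and neuronal genes, 1 had a promoter summit (an interval of 1.79 to 40.4%, which holds the 25.0% of all genes), namely Oli, an Olig-type gene known from embryonic motor neurons. Its stronger summit lay 415 bp upstream of a TSS at rank 2293, with rank 4297 in replicate 1 and rank 1906 in replicate 2. The weaker one lay 215 bp upstream at rank 4441, with rank 3828 in replicate 2 and no partner within 100 bp in replicate 1. The TSSs of 2 long noncoding RNAs, CR44410 and CR44411, lie within 1 kb of both Oli summits, and the stronger summit is 49 bp from that of CR44411. A further IDR summit at Oli stood 6019 bp upstream at rank 3732, and it was among the 5033 strongest of both replicates, at ranks 4355 and 3817. Its rank in replicate 1 lies just beyond the 4333 peaks of that list with a q-value of 0.05 or less.

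The 4 genes of the achaete-scute complex, which open the neural fate in sensory organs and neuroblasts, had no IDR summit in the gene or within 10 kb of it. The nearest IDR summit was 31659 bp from the TSS of ac, 57688 bp from that of sc and 71349 bp from that of l(1)sc, and for these 3 genes it was the same summit, at rank 2148. The neuroblast gene ase had its nearest 26959 bp away, at rank 3276. These 4 genes stand near each other on the X chromosome. They are therefore not separate observations in the counts and intervals of the restricted and the proneural members. The pooled list gave no promoter summit for any of the 4 genes. Replicate 1 alone listed 1 for sc at rank 13392 and replicate 2 alone 1 for ase at rank 24145, far down both lists.

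The atonal family was similar in its promoters but not in its surroundings. For ato, which founds the stretch receptors and photoreceptors, the nearest IDR summit was 13230 bp from the TSS. The other members, amos and cato of the sensory organs, tap of the neurogenin type and dimm of the neuroendocrine cells, had IDR summits only outside the gene, and each of these lay nearest to the TSS of a neighbour. At amos, a summit of rank 210 stood 8196 bp upstream of the gene and 95 bp from the TSS of CG10413. At tap a summit of rank 2204 stood 80 bp from the TSS of CG7692, and at dimm 1 of rank 4019 stood 239 bp from that of Tsp39D. The summit at dimm had rank 3757 in replicate 1 and no partner within 100 bp in replicate 2.

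None of the 8 mesoderm and organ genes had an IDR promoter summit (0 of 8, with an upper Wilson limit of 32.4%, above the 25.0% of all genes). The only member of the group with IDR summits within the gene was nau, the MyoD homologue of the fly. It held intron summits 4260 bp and 1475 bp downstream of its TSS, at ranks 1530 and 2830, of which the first was nearer to the TSS of CG10300, at 2570 bp. The first had rank 2373 in replicate 1 and 1251 in replicate 2, and the second rank 1616 in replicate 1 and 4428 in replicate 2. A further 4 summits lay within 10 kb of nau, the strongest 3790 bp upstream at rank 1108 and 522 bp from the TSS of CG10232. HLH54F, which is needed in the caudal visceral mesoderm, had 1 IDR summit in its 10 kb flanks, at rank 1268, with rank 1866 in replicate 1 and 1133 in replicate 2.

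Of the PTF1-type genes, Fer1 and Fer2 had strong sites at neighbours. The strongest summit near Fer1 had rank 684 and lay 118 bp from the TSS of CG10068, and the strongest near Fer2 had rank 624 and lay 9 bp from that of Mic26-27. In the pooled list beyond the IDR threshold, Fer1 had a promoter summit 871 bp upstream at rank 8095, found at rank 6476 in replicate 2 with no partner in replicate 1. Fer3 had no IDR summit within 10 kb, and neither did Hand of the heart and visceral muscle, sage of the salivary gland or net, a wing vein gene.

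The E protein and Id genes (0 of 2, upper limit 65.8%) and the Hairy and Hey type genes (0 of 3, upper limit 56.1%) had no IDR promoter summit, in groups too small to set beside the 25.0% of all genes. Neither da, which encodes the E protein, nor emc, which encodes the Id protein that sequesters it, had 1 in the pooled list either. For da the pooled list holds no summit within 20 kb of the gene. In its flanks emc had a single summit, at rank 1497. Of the 3 Hairy and Hey type repressors, dpn of the neuroblasts and Hey, a Notch target, had IDR summits only outside the gene. For dpn they were 3 in number, at ranks 1173, 1312 and 3455, the first 137 bp from the TSS of pnut. For Hey they were 2, at ranks 2624 and 4928. The clock repressor cwo held 1 intron summit 5635 bp downstream of its TSS, at rank 1172, with rank 1007 in replicate 1 and 1272 in replicate 2.

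The leucine zipper genes held 13 and the PAS genes 15 of the 31 IDR summits within the members. Of the 9 leucine zipper genes, 4 had a promoter summit (44.4%, 18.9 to 73.3%), beside 25.0% of all genes, which lies inside this interval. Summits within the gene were found at 4 of 9 as well (44.4%), beside 11.4% of all genes. Median gene length was 18.5 kb in this group and 2.17 kb over all genes. Of all genes of 10 kb and over, 44.2% had a summit within the gene. SREBP, the regulator of lipid synthesis genes, had 2 promoter summits. The stronger lay 617 bp downstream of the TSS in an intron at rank 1187, with rank 1058 in replicate 1 and 1301 in replicate 2. The other lay 103 bp upstream at rank 2703, with ranks 2650 and 2884. The 2 summits stood in the same order in both replicates, and the TSSs of CG42637 and Gyc76C lay within 1 kb of both.

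The glucose-sensing pair Mondo and bigmax encode partners that bind DNA together, and their promoters differed in the IDR list. The bigmax summit lay 153 bp upstream at rank 1252, with rank 1553 in replicate 1 and 1175 in replicate 2, and it was 90 bp from the TSS of its neighbour Hmu. Mondo had no IDR or pooled summit in the gene or its 10 kb flanks. Replicate 1, however, placed a summit 63 bp upstream of a Mondo TSS at rank 1269 with a −log10 q of 3.6, and replicate 2 held none there.

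In the Myc network of growth control, Max, the shared dimer partner, had a promoter summit 157 bp upstream at rank 3429, with ranks 3844 and 3871 in replicates 1 and 2. It was 63 bp from the shared start of CG42374 and Mettl5. Mnt, which competes with Myc for Max, had 6 IDR summits in its introns, the strongest 6208 bp downstream of a TSS at rank 823, with ranks 987 and 883. The one that counted as a promoter summit lay 298 bp upstream of an internal TSS at rank 3229. Myc itself had no IDR promoter summit but held a pair of intron summits 8755 bp and 7995 bp into the gene, at ranks 1471 and 3607. Its only pooled promoter summit had rank 25579, far outside the peaks with a q-value of 0.05 or less.

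The strongest summit away from a promoter was in an intron of crp, the AP-4 homologue known from tracheal tube growth. It lay 7824 bp downstream of the TSS at rank 383, with rank 474 in replicate 1 and 352 in replicate 2. A second lay 1843 bp downstream at rank 605, with ranks 793 and 573, and the others had ranks 2332 and 3869. At the crp TSS itself a summit 523 bp downstream had rank 6166 in the pooled list, rank 17549 in replicate 1 and rank 4981 in replicate 2. Usf, an E-box binding factor, had a single flank summit at rank 4764, 28 bp from the TSS of CG11444. Mitf, the regulator of lysosome genes, had no summit in the gene or its 10 kb flanks in any of the lists.

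The PAS genes had promoter summits at 5 of 10 members (an interval of 23.7 to 76.3%), beside 25.0% of all genes, which lies inside this interval. They had summits within the gene at 6 of 10 (31.3 to 83.2%), beside 11.4% of all genes. Median length of the PAS genes was 20.8 kb, and the 44.2% of all genes of 10 kb and over lies inside this interval. The strongest promoter site of the whole set was at gce, which encodes a receptor for juvenile hormone. It lay in an intron, 549 bp upstream of an internal TSS, at rank 103, with rank 119 in replicate 1 and 98 in replicate 2. Other intron summits of gce had ranks 2378 and 4121. The antisense RNA CR44429 starts 243 bp from the strongest site. Met, the other juvenile hormone receptor, had no promoter or intron summit, and its 2 flank summits had ranks 2448 and 3403. The coactivator of both, tai, had a promoter summit 175 bp upstream at rank 1568, with ranks 1840 and 1512, which lay 89 bp from the TSS of CG9586. It also held 6 intron summits spread over its 83.4 kb, the strongest 1691 bp downstream of the first TSS at rank 1121.

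In the hypoxia pathway, sima, the HIF-1 alpha homologue, had a promoter summit 121 bp upstream at rank 2891, with ranks 3007 and 2818, and intron summits at ranks 1010, 1431 and 3718. The shared dimer partner tgo, the ARNT homologue, had 1 summit 15 bp downstream of its TSS at rank 3974. It was the least supported promoter summit of the set, with rank 18089 in replicate 1 and no partner in replicate 2. The tracheal fusion gene dysf, a restricted member, had a promoter summit 394 bp upstream at rank 2395, with ranks 2533 and 2720. Its intron summit at rank 3839 had rank 2671 in replicate 2 and no partner within 100 bp in replicate 1. The midline regulator sim held 1 intron summit at rank 2593, with rank 1229 in replicate 1 and 4263 in replicate 2.

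The antennal and leg gene ss had no IDR summit in the gene or its flanks, and 4 pooled summits within the gene, none of them within the IDR list. Of the clock pair, Clk had no IDR summit within 10 kb, and cyc had 1 flank summit at rank 676, 87 bp from the TSS of Fibp.

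**Figure D2:**
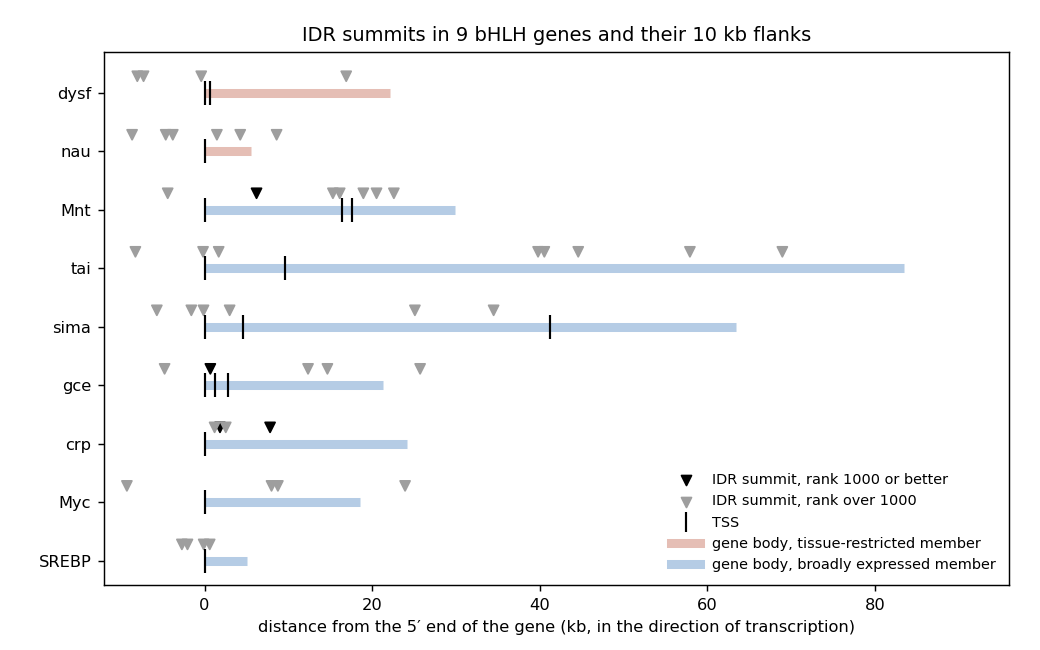
IDR summits of 9 bHLH genes against the distance in kb from the 5' end of the gene, in the direction of transcription; bars are gene bodies, with the restricted members dysf and nau above the broad members, ticks are TSSs and triangles are summits, black for rank 1000 or better. Summits of Mnt, tai, sima and crp lie along the introns, and in SREBP they gather at the 5' end.

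The position of the summits was measured in more detail. Of the 12 promoter summits, 10 lay upstream of the TSS, and the median distance was 195 bp. Of the 31 summits within genes, 30 were in introns, 1 in a noncoding exon (at tgo) and 0 in coding sequence. Of the 80 summits in the genes and flanks together, 49 lay outside the member. Among protein-coding TSSs, 41 of those 49 were nearest to a neighbour's, and 35 of the 49 lay within 1 kb of one. For the restricted members 25 of 29 summits lay outside the gene and 18 were within 1 kb of a neighbour's TSS. For the broad members 24 of 51 lay outside and 17 were that close to a neighbour. A count over 10 kb flanks at these genes therefore describes their neighbours to a large extent. The positions were not counted over all IDR summits, so they stand without a background and are not shown to be particular to these genes.

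The classes differ in how closely their genes are packed and in their size. A TSS of another protein-coding gene lay within 1 kb of a member's TSS at 1 of 24 restricted members (4.17%) and at 9 of 18 broad members, beside 42.9% of all genes. Among genes without such a neighbour, 2 of 23 restricted members (8.7%) and 3 of 9 broad members (33.3%) had a promoter summit, beside 15.3% of all genes. Of the 12 promoter summits, 5 were shared with a neighbour in this way, at SREBP (both), bigmax, Max and tai. If a summit was given only to the protein-coding gene of the nearest TSS, 7 members kept it, 2 restricted and 5 broad, with Max, bigmax and tai lost to their neighbours. Noncoding genes were left out of this rule. The share of all genes under it was not taken, so these counts stand without a background. The gce promoter summit, counted among the 5, lay nearer to the TSS of the antisense RNA CR44429 than to that of gce. The share of the class difference that goes with the neighbours was not tested.

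Median gene length was 2.57 kb in the restricted members and 8.83 kb in the broad members, beside 2.17 kb over all genes. Among members of 10 kb and over, 9 of 14 (64.3%) had a summit within the gene, beside 44.2% of all genes of that length. Among members under 2 kb, 0 of 11 had one, beside 2.18%. Per 100 kb of gene, the restricted members held 2.86 summits, the broad members 8.06 and all genes 2.92. The 27 summits within broad members came from 9 genes.

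Strength and replicate support were taken from ranks within each list. The best promoter rank of the 10 members had a median of 2344.0, from 103 to 3974, beside a median of 1891.5 over the 3484 genes with an IDR promoter summit. Only gce (1 of 10) was among the strongest 1000, beside 29.6% of all such genes. Of the 12 promoter summits, 10 had a partner within 100 bp in both full replicate lists, and the same 10 were among the 5033 strongest of both. Over the IDR list 92.1% of peaks had both partners and 70.1% had both among the strongest. The exceptions were the weaker Oli summit and tgo. The IDR list was made from these replicates, so its support in them is set in part by that choice.

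**Figure D3:**
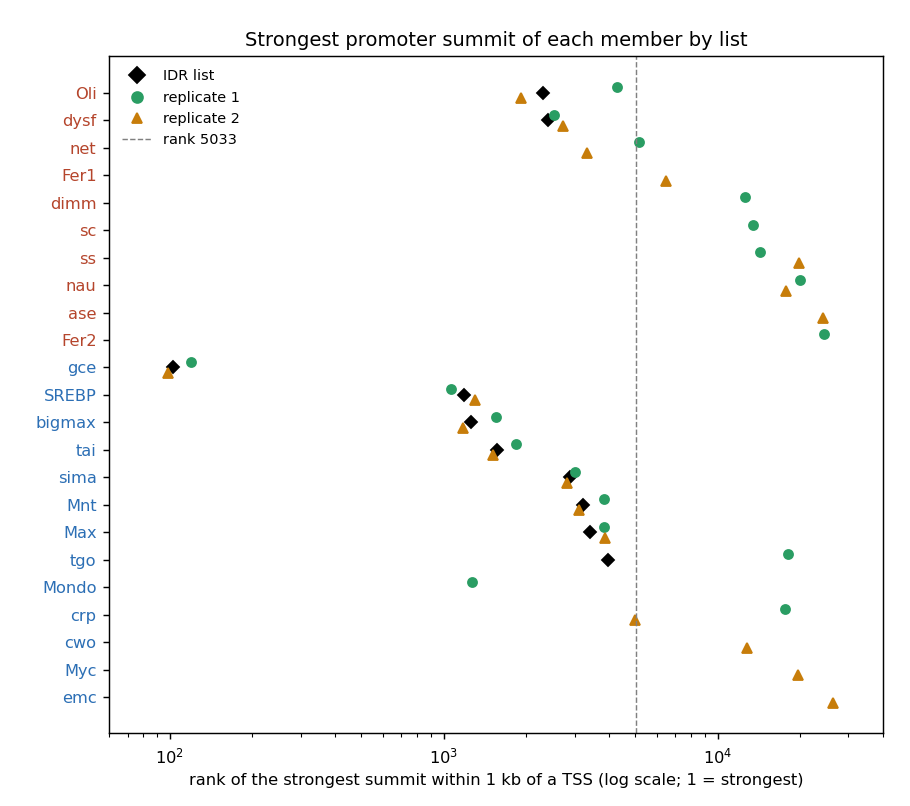
Rank of each member's strongest summit within 1 kb of a TSS on a log scale (1 is strongest) in the IDR list, replicate 1 and replicate 2, with tissue-restricted members in red above broadly expressed members in blue; the 19 members with no such summit in these lists are not shown. The dashed line is rank 5033; gce stands alone near rank 100, and Mondo is found in replicate 1 only.

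The class counts were also taken from the other lists. Among the 5033 strongest peaks of replicate 1, 2 of 24 restricted and 8 of 18 broad members had a promoter summit, beside 25.6% of all genes. Among those of replicate 2 the counts were 3 of 24 and 8 of 18, beside 24.5%. Within the gene the counts were 2 of 24 and 8 of 18 in replicate 1, beside 11.7%, and 3 of 24 and 8 of 18 in replicate 2, beside 11.5%. In the full lists of 30000 peaks, which reach far below a q-value of 0.05, the promoter counts were 8 of 24 and 10 of 18 in replicate 1, beside 55.1%, and 7 of 24 and 11 of 18 in replicate 2, beside 48.9%. The full pooled list gave 5 of 24 and 11 of 18 at promoters, beside 50.6%, and 9 of 24 and 12 of 18 within the gene, beside 33.4%. With the 10 kb flanks and the strongest peaks, 17 of 24 restricted and 15 of 18 broad members had a summit in replicate 1, beside 66.4% of all genes, and 13 of 24 and 15 of 18 in replicate 2, beside 64.3%. In the full lists the order turned, with 21 of 24 restricted (87.5%) and 15 of 18 broad members (83.3%) in the pooled list, beside 92.5%, 24 of 24 and 16 of 18 in replicate 1, beside 95.9%, and 22 of 24 and 16 of 18 in replicate 2, beside 91.6%.

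**Figure D4:**
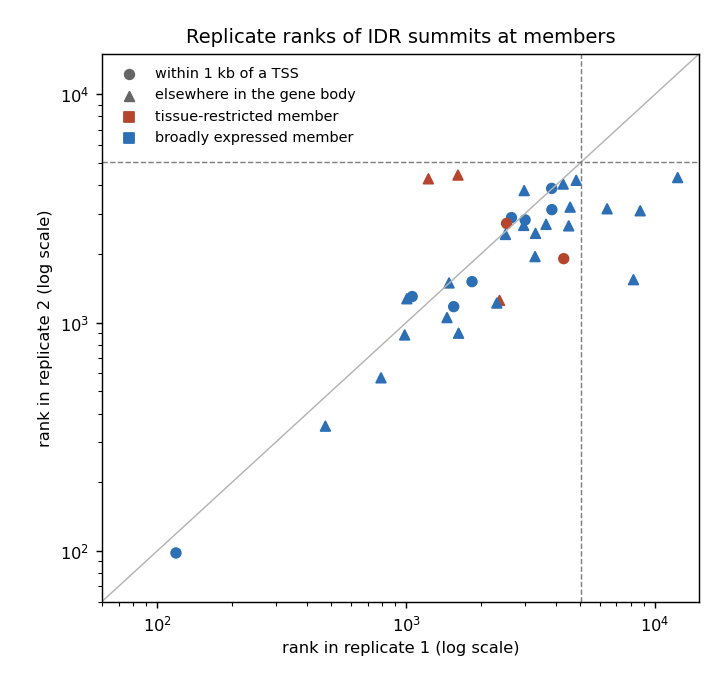
Rank in replicate 2 against rank in replicate 1, both on log scales, for the 35 IDR summits at bHLH promoters (circles) or elsewhere in the gene (triangles) that have a partner within 100 bp in both lists, in red for tissue-restricted and blue for broadly expressed members. Dashed lines are rank 5033; gce lies lowest at ranks 119 and 98.

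Some members lie in stretches where a list holds no summits at all. The pooled list had none in the gene or within 20 kb of Hand, net, da, Mondo and Mitf, 5 of 42 members (11.9%), beside 2.93% of all genes. In replicate 1 this held for da and Mitf (4.76%, beside 1.85%), and in replicate 2 for Hand, Mondo and Mitf (7.14%, beside 3.12%). Single replicates did list strong summits in some of these places. Replicate 2 had a summit of rank 541 at 1615 bp upstream of da and a summit of rank 3321 at 214 bp upstream of net, which had rank 5145 in replicate 1. Neither had a pooled summit within 250 bp. Of the 5033 strongest peaks, 205 in replicate 1 (4.07%) and 56 in replicate 2 (1.11%) were without a pooled summit within 250 bp. For these members an empty promoter in the IDR list is therefore not a measurement of no binding, and the cause of the empty stretches was not tested. Leaving out the 6 members with no pooled summit within 10 kb (those 5 and l(1)sc) gave 2 of 21 restricted (9.52%) against 8 of 15 broad members (53.3%), a choice made after seeing the data. Every IDR peak is also in the pooled list, so these 6 could hold no IDR promoter summit. Their removal could only raise both shares, and it is no check of the class difference.

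The sequence around the summits was read for motifs within 100 bp on either side, on both strands. Of the 12 promoter windows, 9 held the E-box core CANNTG, against 56.5% of all IDR windows of this length, and 0 held the CACGTG form bound by the Myc and clock dimers, against 1.63%. TTTATGG was in 1 window, at SREBP, against 7.77%, and TTTATTG in 0, against 12.2%. TAATTA, the general homeodomain core, was in 5 windows, at both Oli summits, bigmax, tai and the intron site of SREBP, against 19.5%. CGATA was in 2 windows against 29.9%, TATCGATA, which contains it, in 1 against 4.09%, GGTCACAC in 2 against 2.64% and GAGAG in 2 against 20.1%. In the 27 other windows within the genes, CANNTG was in 15, TTTATGG in 1, TTTATTG in 5, TAATTA in 8 and GAGAG in 9. GC content averaged 31.3 ± 5.48% in the 12 promoter windows and 33.2 ± 6.21% in the 27 others (SD over windows), against 34.9 ± 7.25% in all 5033. A match describes letters and not a bound site.

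Other bHLH genes, on a list set from general knowledge, had promoter summits at 5 of the 15 that matched a single gene (33.3%), beside 25.0% of all genes. They were trh, the tracheal PAS gene, at rank 1709, and 4 Enhancer of split genes, which carry out Notch signalling: E(spl)m3-HLH at rank 351, E(spl)mdelta-HLH at rank 640, E(spl)m7-HLH at rank 1587 and E(spl)mbeta-HLH at rank 1963. The E(spl)mdelta-HLH summit lay 999 bp upstream, nearest to the TSS of CG43116. The Enhancer of split genes stand next to each other, so their summits are not separate observations. Of 12 partner, regulator and target genes, 4 had a promoter summit (33.3%). They were chn at rank 435, the prolyl hydroxylase gene Hph of the hypoxia pathway at rank 1044, and the clock genes vri at rank 1499 and Pdp1 at rank 3444. The other 8, among them per, tim, the sterol pathway gene SCAP, the juvenile hormone target Kr-h1 and the proneural partner sens, had none.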

How the data were processed

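Peak lists from anti-GFP ChIP-seq of 2 biological replicates (1 group) were used: 1 per replicate, 1 pooled and 1 IDR list, on build dm6 per the labels. Sonication gave fragments of 200 to 800 bp, per the labels. Names of the aligner and the peak caller were not given in the sources used here. Per peak, the authors deposited a signal value, which served for ranks inside 1 list only, and a −log10 q-value (log10 scale). Controls were not analysed here.

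Peaks were sorted by signal, then q-value, then position. Genes came from Ensembl release 115 (BDGP 6.54) and bases from the RefSeq Release 6 assembly, on the 6 main arms. No peak lay beyond an arm's end, and 1 replicate 2 peak and 1 pooled peak outside the arms were left out. Coordinates are 1-based. Summits matched between lists within 100 bp. A summit near TSSs of several genes counted for each.

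The members, classes, lists and motifs were chosen with earlier results of these data known, so counts stand beside all protein-coding genes, with no test. Every member is accounted for, and those with an IDR summit at a promoter or in the gene are described with ranks. Of the other listed genes, those with an IDR promoter summit are named. The symbol h was matched as hry, and Side was ambiguous and left out. Alternatives were stricter lists, single replicates, other windows, matching distances, TSS rules and classes. Functions were tested on simulated data. The software was matplotlib 3.10.9, scipy 1.17.1, pandas 2.3.3 and numpy 2.4.6 under Python 3.11.15.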

Additional observations from a re-analysis of the deposited data

How the results depend on the processing

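Fewer promoter summits in restricted than in broad members was found under all alternatives run, with a difference from -52.4 to -5.56 percentage points. The value of -52.4 came from leaving out members of uncertain class. That choice, and leaving out members without a pooled summit within 10 kb, removed only members without an IDR promoter summit. Neither choice could lower the share of a class, so neither is a check of the class difference. The smallest difference came with the 1000 strongest IDR peaks. There 0 restricted members and 1 broad member (gce) had a promoter summit, beside 7.41% of all genes, so this difference rests on 1 gene. Proneural and leucine zipper genes then had 0 and PAS genes 1. With these peaks 3 gene bodies and 8 genes with flanks held a summit. The share of all genes was not taken for these last counts, so they stand without a background. Counting only the nearest protein-coding TSS gave 5 broad members and 2 leucine zipper genes, with no share of all genes taken under this rule. Mesoderm and organ genes had 1 promoter summit with a 2 kb window and with the strongest peaks of each replicate added (chosen after seeing the data), and 0 to 1 when a replicate was left out, the 1 being net without replicate 1. Leaving out a replicate gave promoter counts of 10 to 11. With either replicate left out tgo had none, without replicate 1 crp had 1, and without replicate 2 Mondo had 1. Windows reaching 50 bp to either side of the 12 promoter summits held CANNTG in 5 (against 32.7% of all IDR windows of that length). TAATTA was in 2 (11.1%), TATCGATA in 0 (2.09%), CGATA in 1 (16.0%), GGTCACAC in 1 (1.15%) and GAGAG in 1 (8.94%). Windows reaching 200 bp to either side held CACGTG in 1 (4.55%), TTTATTG in 1 (19.9%), CGATA in 5 (46.9%) and GAGAG in 5 (42.1%). Fewer bases are searched in the shorter windows. No paired analysis was possible because there was 1 group and no test. Depth is unknown, so an empty promoter may lie below detection.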
